A study of Mus musculus with 4 samples.

Results

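Transcripts of 6 genes of the STAT (signal transducer and activator of transcription) family, Stat2, Stat3, Stat4, Stat5a, Stat5b and Stat6, were followed in splenic T cells of C57BL/6 mice that carried an adeno-associated virus (AAV) that makes interleukin-27 (IL-27), or a control AAV. The members were taken by gene symbol from a table of 17039 genes, and all 6 were found there and passed the filter on low counts, with 12887 genes tested in all. There were 2 groups, AAV-IL-27 and AAV-ctrl, with 2 libraries in each (replicates 1 and 3). Both groups received virus into the muscle, and about a month later spleen T cells were isolated with magnetic beads. The design text speaks of 4 mice, so each library was read as 1 animal. The age and sex of the mice, the promoter that drives IL-27 and the dose of virus are not stated in the labels used here.

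STAT proteins wait in the cytoplasm until a cytokine receptor is engaged, when Janus kinases (JAKs) bound to the receptor phosphorylate them, and they pair and move to the nucleus to switch genes on or off. Each family member is tied to certain receptors: STAT3 to receptors built on gp130 (Il6st), of which the IL-27 receptor is one, STAT2 to type I interferon, STAT4 to interleukin-12, STAT5A and STAT5B to cytokines of the common gamma chain, and STAT6 to interleukin-4. In CD8+ T cells these routes are known for steering cells toward effector, memory or regulatory programs. The RNA level of a STAT gene is a separate quantity from the phosphorylation of its protein, which was not measured here.

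The libraries held 15742523 to 16182453 expected counts each. The series title names CD8+ T cells. Cd8a stood at 408 and 349 FPKM in the AAV-IL-27 libraries, against 321 and 335 FPKM in the AAV-ctrl libraries, while Cd4 stayed between 8.21 and 10.1 FPKM in all of them. FPKM are counts per gene length and library size, a unit inferred here, with only the scaling by library size checked on the values. RNA of other cells was present as well. The summed level of 8 B cell marker genes was 1806 and 2506 CPM (counts scaled to library size) in AAV-IL-27, against 3808 and 3350 CPM in AAV-ctrl. The 10 neutrophil marker genes summed to 827 and 1349 CPM in AAV-IL-27, against 23.7 and 15.3 CPM in AAV-ctrl, and 9 of these 10 genes rose. By the test described below, 21.3% of all genes tested rose and 17.7% fell, which is the background of every marker count here. The 10 T cell marker genes summed to 4497 and 4022 CPM in AAV-IL-27, against 3864 and 3967 CPM in AAV-ctrl. Of these 10 genes, 5 rose, 0 fell and 5 did not pass. Natural killer cell markers summed to 256 to 285 CPM in AAV-IL-27 and 274 to 278 CPM in AAV-ctrl, but that sum rested mostly on Gzma and Eomes, which activated CD8+ T cells express too and which both rose. The other 5 of the 7 genes (Ncr1, Klrb1c, Klra8, Klra4 and Klre1), receptors of natural killer cells, all fell, to between 1.22 and 4.6 FPKM in the AAV-IL-27 libraries, against 9.79 to 16.7 FPKM in the AAV-ctrl libraries. The Klra genes have close copies, so their single values are uncertain. Macrophage markers summed to at most 269 CPM in AAV-IL-27 and at most 319 CPM in AAV-ctrl, with 5 of 8 lower and 1 higher, and erythroid markers to at most 21.9 CPM in any library. No gene of these lists was at 0 in every library. STAT genes are expressed in several of these cell types, and the part of other cells in the STAT levels was not tested.

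Of the 6 STAT genes, 3 rose in AAV-IL-27 (Stat2, Stat3 and Stat5a), 2 fell (Stat4 and Stat6) and 1 (Stat5b) did not pass. With upper-quartile factors, with library size alone or with factors taken from the T cell marker genes, 2 rose (Stat2 and Stat3) and 3 fell (Stat4, Stat5b and Stat6). As reported, Stat3 and Stat2 carried the larger shifts, about 1.59-fold and 1.51-fold, and the other 4 genes moved by less than 0.2 on the log2 scale. With factors from the T cell marker genes Stat3 was at 0.51 and Stat2 at 0.43 on that scale. Stat4, Stat5b and Stat6 were then at -0.36, -0.30 and -0.33. The test was edgeR's quasi-likelihood test across all genes with Benjamini-Hochberg adjustment and a threshold of 0.05. By the same test 39.0% of all genes changed, 21.3% higher and 17.7% lower. That split depended on the scaling: 2745 genes rose and 2278 fell as reported, against 2362 and 2979 with upper-quartile factors, 2363 and 2975 with library size alone, and 1449 and 3662 with factors taken from the T cell marker genes. A call for 5 of 6 members therefore stands on a high background. The FPKM of the groups did not overlap for any of the 6 genes, which was also so for 72.0% of all genes tested. The median log2 fold change was 0.03 over the 6 members and -0.01 over all genes tested. DESeq2, which called 25.2% of all genes, called Stat2 and Stat3 of the 6.

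**Figure D1:**
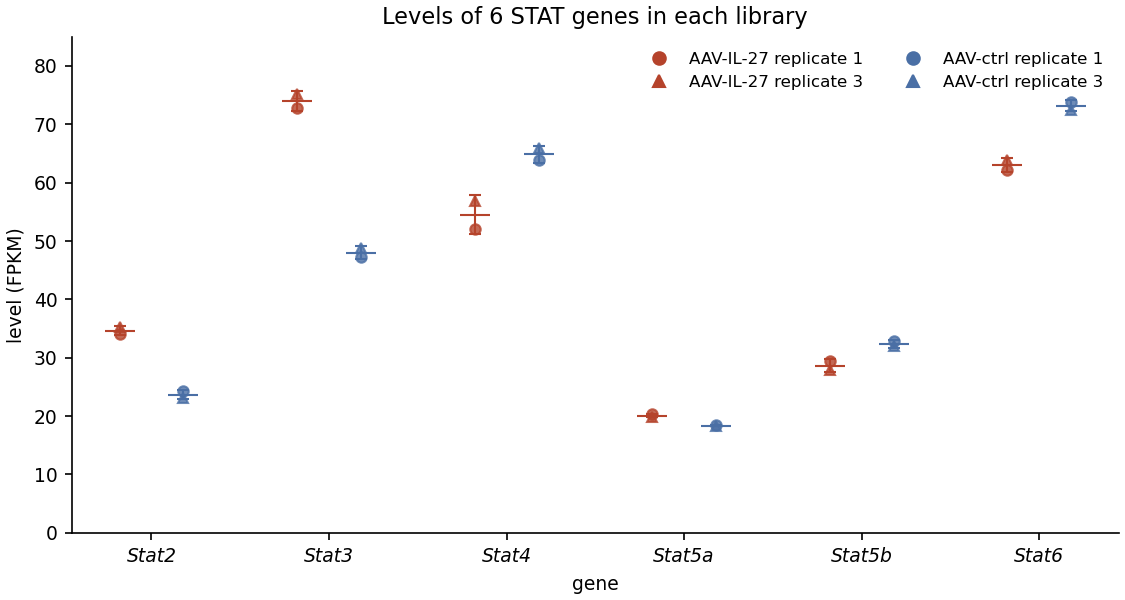
FPKM (vertical axis) of each STAT gene in every library, AAV-IL-27 in red left of AAV-ctrl in blue, with circles for replicate 1, triangles for replicate 3, and bars for the mean and SD (n = 2). Stat3 lies at 72.8 and 75.2 FPKM in AAV-IL-27, above 47.2 and 48.9 FPKM in AAV-ctrl, while Stat4 and Stat6 lie lower in AAV-IL-27.

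Stat3, the STAT that gp130 receptors engage, had 72.8 and 75.2 FPKM in the AAV-IL-27 libraries, against 47.2 and 48.9 FPKM in the AAV-ctrl libraries (replicates 1 and 3 in each). The lowest AAV-IL-27 library lay well above the highest AAV-ctrl library, and the 2 libraries of a group lay close together. The expected counts behind these values were 5303 and 5497 in AAV-IL-27, against 3372 and 3483 in AAV-ctrl. The log2 fold change was 0.67 ± 0.048 (SE, edgeR adjusted p = 8.67e-06), higher in 2 of 2 AAV-IL-27 libraries, and it ranked at the percentile 90.1 of all genes tested. Stat3 (NCBI Gene 20848) lies on chromosome 11 at 100886806 to 100939594 of GRCm38.p6, on the minus strand. Its call held under every alternative tried, but the size depended on the scaling. With factors from the T cell marker genes the log2 fold change was 0.51 ± 0.107 (SE, edgeR adjusted p = 1.96e-05). The summed neutrophil markers, 827 and 1349 CPM in AAV-IL-27 against 23.7 and 15.3 CPM in AAV-ctrl, were higher in the same libraries, and their part in the Stat3 and Stat2 levels was not tested.

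Stat2, which joins IRF9 in the complex that type I interferon activates, had 34.1 and 35.2 FPKM in AAV-IL-27, against 24.2 and 23.1 FPKM in AAV-ctrl. Both AAV-IL-27 libraries lay above both AAV-ctrl libraries. The log2 fold change was 0.60 ± 0.051 (SE, edgeR adjusted p = 2.56e-05), from 2395 and 2472 expected counts in AAV-IL-27 and 1669 and 1582 in AAV-ctrl. The gene (NCBI Gene 20847, chromosome 10, 128270498 to 128292853, plus strand) kept its call under every alternative tried. With factors from the T cell marker genes its log2 fold change was 0.43 ± 0.109 (SE, edgeR adjusted p = 0.000442). Stat2 and Stat3 moved by similar factors: the log2 ratio of Stat2 to Stat3 in FPKM was -1.10 in each AAV-IL-27 library, against -0.96 and -1.08 in AAV-ctrl.

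Stat5a and Stat5b, the paired factors downstream of interleukin-2, interleukin-7 and interleukin-15, were the least abundant members in AAV-IL-27, and Stat5a rose slightly while Stat5b did not pass. Stat5a (NCBI Gene 20850, chromosome 11, 100859351 to 100885169) had 20.3 and 19.9 FPKM in AAV-IL-27, against 18.4 and 18.3 FPKM in AAV-ctrl. The AAV-IL-27 libraries were higher without overlap, by a small margin. The log2 fold change was 0.19 ± 0.054 (SE, edgeR adjusted p = 0.0231). The call was lost with any of 3 libraries left out: the edgeR adjusted p was 0.0553 with AAV-IL-27 replicate 1 left out, 0.136 with AAV-ctrl replicate 1 left out and 0.143 with AAV-ctrl replicate 3 left out. With library factors taken from the T cell marker genes the log2 fold change was 0.018 ± 0.114 (SE, edgeR adjusted p = 0.914). The rise of Stat5a thus depended on the scaling.

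Stat5b (NCBI Gene 20851, chromosome 11, 100780731 to 100859004) had 29.5 and 27.9 FPKM in AAV-IL-27, against 32.9 and 31.9 FPKM in AAV-ctrl. Its AAV-IL-27 libraries were the lower ones, and the groups did not overlap. The log2 fold change was -0.13 ± 0.051 (SE, edgeR adjusted p = 0.0768). With AAV-IL-27 replicate 1 left out it passed (-0.17, edgeR adjusted p = 0.0331), and with replicate 3 of the same group left out it moved to -0.09 (adjusted p = 0.222). It also passed with factors taken from the T cell marker genes (-0.30, adjusted p = 0.0182). The ratio of Stat5a to Stat5b within a library, which no library scaling can alter, was 0.701 by FPKM in AAV-IL-27, against 0.567 in AAV-ctrl. On the log2 scale this ratio was -0.54 and -0.48 in AAV-IL-27, against -0.83 and -0.80 in AAV-ctrl.

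The values of Stat5a and Stat5b carry a mapping limit. In the GENCODE transcripts of the same build, 8.52% of the 50-base stretches of Stat5a and 10.98% of those of Stat5b also occur in a transcript of another gene, chiefly of each other. For 100-base stretches the shares were 3.44% and 4.79%. Their expected counts were fractional, as were those of Stat6, which shares no such stretch, so the fractions do not follow the shared sequence. Stat5b, Stat5a and Stat3 follow one another on chromosome 11, with 346 bases between the first pair and 1636 bases between the second. The annotated exons of Stat3 and Stat5a overlap by 72 bases on opposite strands. The labels do not say whether strand was used in counting, so reads from that stretch cannot be assigned to one of the 2 genes.

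Stat4, the STAT of interleukin-12 and a driver of interferon-gamma production, had 52.1 and 56.9 FPKM in AAV-IL-27, against 63.8 and 65.9 FPKM in AAV-ctrl. Both AAV-IL-27 libraries were lower, and they differed more from each other than those of any other member. The log2 fold change was -0.19 ± 0.056 (SE, edgeR adjusted p = 0.0230). The call was lost at -0.13 (edgeR adjusted p = 0.0923) with AAV-IL-27 replicate 1 left out, at -0.23 (0.0841) with AAV-ctrl replicate 1 left out and at -0.16 (0.191) with AAV-ctrl replicate 3 left out. In these bulk samples a smaller share of cells with a transcript and less transcript per cell cannot be told apart. Stat4 (NCBI Gene 20849) spans chromosome 1 from 51987106 to 52107189. In GENCODE it shares 1033 bases of exon with Gm28177, an annotated gene on the same strand that has no row in the table, and 21.7% of the 50-base stretches of Stat4 transcripts occur in another gene. Its deposited counts were whole numbers.

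Stat6, the mediator of interleukin-4 signals, had 62.2 and 63.9 FPKM in AAV-IL-27, against 73.8 and 72.5 FPKM in AAV-ctrl. Again both AAV-IL-27 libraries were the lower ones. The log2 fold change was -0.17 ± 0.047 (SE, edgeR adjusted p = 0.0199). With AAV-ctrl replicate 1 left out the edgeR adjusted p was 0.162, and with AAV-ctrl replicate 3 left out it was 0.116, so either loss ended the call. Stat6 (NCBI Gene 20852) lies on chromosome 10 at 127642955 to 127660987, and no 50-base stretch of its transcripts occurs in another gene. Its exons overlap those of Nab2 by 40 bases on the opposite strand. B cell markers, summed above, were lower in the same libraries, with 3 of 8 genes called lower. Of the 7 natural killer cell markers, 5 were called lower and 2 higher. Over all genes tested, 17.7% were called lower and 21.3% higher. The part of either cell type in the lower Stat4 and Stat6 levels was not tested.

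The order of the 6 named members, the only STAT genes ranked here, changed between the groups. In AAV-IL-27 the mean level per length ran from Stat3 (74.0 ± 1.71 FPKM, SD, n = 2) through Stat6 (63.0 ± 1.195), Stat4 (54.5 ± 3.37), Stat2 (34.6 ± 0.778) and Stat5b (28.7 ± 1.12) to Stat5a (20.1 ± 0.255). In AAV-ctrl it ran from Stat6 (73.2 ± 0.948 FPKM) through Stat4 (64.9 ± 1.46), Stat3 (48.0 ± 1.19), Stat5b (32.4 ± 0.658) and Stat2 (23.7 ± 0.813) to Stat5a (18.4 ± 0.0849). No neighbours in either order overlapped in their libraries. Stat3 stood first in AAV-IL-27 and behind Stat6 and Stat4 in AAV-ctrl, and Stat2 stood above Stat5b in AAV-IL-27 and below it in AAV-ctrl. Among all genes tested, Stat3 stood at the percentile 92.4 of mean FPKM in AAV-IL-27, against 87.8 in AAV-ctrl, and Stat5a at 67.9 in AAV-IL-27, against 65.2 in AAV-ctrl.

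The 6 genes summed to 271 and 279 FPKM in AAV-IL-27, against 260 and 261 FPKM in AAV-ctrl. Within that sum Stat3 took 26.9% and 27.0% in AAV-IL-27, against 18.1% and 18.8% in AAV-ctrl. Stat6 took 22.9% in each AAV-IL-27 library, against 28.4% and 27.8% in AAV-ctrl. Stat5a held nearly the same share, 7.49% and 7.14% in AAV-IL-27, against 7.08% and 7.03% in AAV-ctrl. These are shares of FPKM and not of counts.

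**Figure D2:**
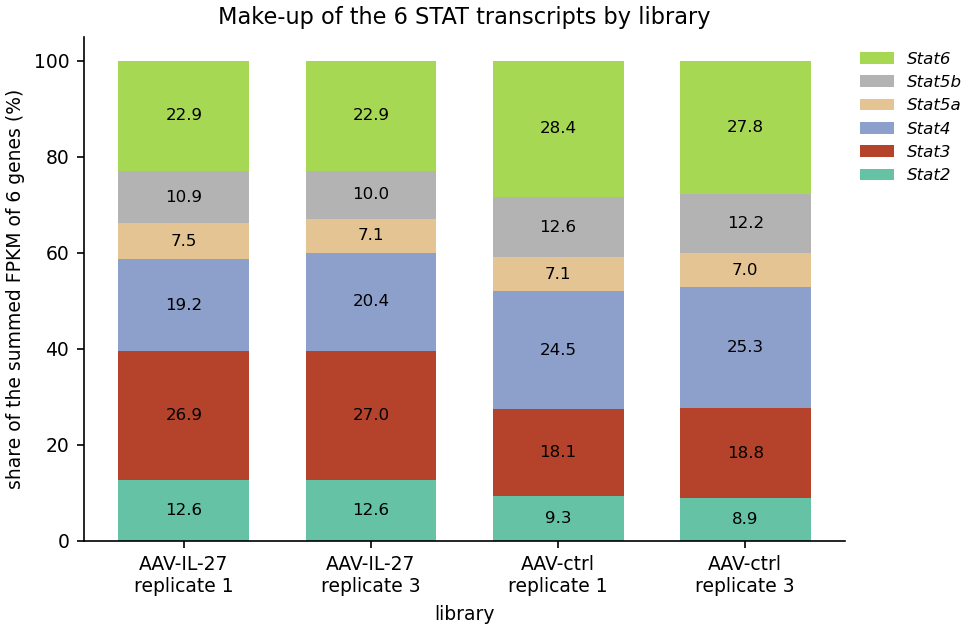
Share of each STAT gene in the summed FPKM of the 6 genes (vertical axis, percent) for each library, with the 2 AAV-IL-27 libraries left of the 2 AAV-ctrl libraries. The Stat3 segment is 26.9% and 27.0% in AAV-IL-27, against 18.1% and 18.8% in AAV-ctrl, and the Stat4 segment is 19.2% and 20.4% in AAV-IL-27, against 24.5% and 25.3% in AAV-ctrl.

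Ratios between members do not depend on library size or scaling. Of 15 pairs of members, 12 had log2 ratios that did not overlap between the groups. Over all pairs of tested genes with a value above 0 in every library, 70.5% did not overlap, so the count for the STAT pairs stands near the background. The largest of the 15 shifts was in Stat3 over Stat4, at 0.48 and 0.40 in AAV-IL-27, against -0.44 and -0.43 in AAV-ctrl. Stat3 was thus the more abundant of the pair in both AAV-IL-27 libraries and the less abundant in both AAV-ctrl libraries. The ratio of Stat3 to Stat6 shifted by 0.84 and that of Stat2 to Stat4 by 0.80 in the same direction. The 3 pairs among Stat4, Stat5b and Stat6 overlapped between the groups, with shifts of -0.08 (Stat4 over Stat5b), -0.04 (Stat4 over Stat6) and 0.04 (Stat5b over Stat6). With 2 libraries against 2, the exact two-sided permutation test cannot go below p = 0.333, which each of the 12 pairs reached (0.417 after Benjamini-Hochberg adjustment over the 15 pairs), so no pair could pass.

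The start regions of 3 members are shown because the 2 genes with the larger rises can be set beside a gene that fell. All 6 members have at least 1 window in the RefSeq promoter table of GRCm38.p6, with 9 windows of 300 bases around a listed start in all. They were searched on both strands for the palindromic STAT motif TTCNNNGAA (the gamma-activated site) and for GAAA followed by any 2 bases and GAAA again, the core of the interferon-stimulated response element that STAT2 and IRF9 complexes bind. Capitals mark a match. The strings run 5′ to 3′ along the gene, for Stat2 from chr10:128270248-128270547 (plus strand), for Stat3 from chr11:100939491-100939790 (minus strand) and for the second listed start of Stat4 from chr1:52007990-52008289 (plus strand).
Stat2: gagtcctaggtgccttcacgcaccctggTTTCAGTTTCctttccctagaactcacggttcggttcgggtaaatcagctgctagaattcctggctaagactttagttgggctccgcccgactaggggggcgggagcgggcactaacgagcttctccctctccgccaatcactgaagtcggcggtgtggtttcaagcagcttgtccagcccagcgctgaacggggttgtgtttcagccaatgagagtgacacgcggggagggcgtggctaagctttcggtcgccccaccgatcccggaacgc
Stat3: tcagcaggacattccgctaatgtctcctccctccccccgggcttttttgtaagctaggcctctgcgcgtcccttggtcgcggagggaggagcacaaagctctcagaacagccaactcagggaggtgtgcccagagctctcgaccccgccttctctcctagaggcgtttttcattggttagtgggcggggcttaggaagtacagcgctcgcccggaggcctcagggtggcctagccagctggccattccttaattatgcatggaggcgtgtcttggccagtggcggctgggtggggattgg
Stat4: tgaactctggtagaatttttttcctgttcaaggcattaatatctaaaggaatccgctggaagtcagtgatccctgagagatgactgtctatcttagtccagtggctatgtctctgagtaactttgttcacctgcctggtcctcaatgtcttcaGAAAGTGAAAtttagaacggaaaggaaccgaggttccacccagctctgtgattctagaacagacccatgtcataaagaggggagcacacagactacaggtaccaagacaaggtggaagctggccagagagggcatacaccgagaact

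The Stat2 window holds 1 response element match, whose first base is at -222 from the start, and the shown Stat4 window holds 1 at -97. The Stat3 window and the other 6 windows, among them those of Stat6 and of the first listed start of Stat4, hold neither motif. The shown Stat4 window is thus the sole window with a match among those of the genes that fell. Across all 32851 windows of the table, 3.44% hold the response element core and 8.30% hold TTCNNNGAA. A match is present in a gene that rose and in a gene that fell, and it describes letters only.

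Upstream of the STATs, the JAK kinases moved unequally. Of the 4, Jak2 and Jak3 rose, Jak1 fell and Tyk2 did not pass, with a median log2 fold change of 0.14. Of all genes tested, 21.3% rose and 17.7% fell. Jak3, the kinase of the common gamma chain, had 95.6 and 94.7 FPKM in AAV-IL-27, against 45.7 and 51.0 FPKM in AAV-ctrl. The groups lay far apart, with a log2 fold change of 1.03 ± 0.059 (edgeR adjusted p = 1.98e-06). Jak1, the partner of most cytokine receptors, had 196 and 182 FPKM in AAV-IL-27, against 231 and 244 FPKM in AAV-ctrl (-0.29 ± 0.052, edgeR adjusted p = 0.00230). With AAV-ctrl replicate 3 left out, Jak1 lost its call (adjusted p = 0.0570). Jak2 rose by 0.31 ± 0.065 (edgeR adjusted p = 0.00595), but not with AAV-ctrl replicate 1 left out (0.22, adjusted p = 0.0821) or with factors from the T cell marker genes (0.14, adjusted p = 0.301). Tyk2 stood at 26.0 ± 1.46 FPKM in AAV-IL-27, against 27.0 ± 0.0778 FPKM in AAV-ctrl (SD, n = 2).

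Of 18 cytokine receptor chains that feed STATs, 7 rose, 6 fell and 5 did not pass (median log2 fold change 0.01). With factors from the T cell marker genes 5 rose and 7 fell. The shares over all genes tested were 21.3% higher and 17.7% lower as reported. Il12rb1 and Il12rb2, the interleukin-12 receptor that engages STAT4, averaged 21.4 ± 2.04 and 13.3 ± 0.884 FPKM in AAV-IL-27, against 4.69 ± 0.0919 and 3.13 ± 0.601 FPKM in AAV-ctrl. They rose while Stat4 itself stood slightly lower. Il15ra, the private chain of the interleukin-15 receptor, rose by 1.35 ± 0.11 on the log2 scale (edgeR adjusted p = 1.41e-05). Il7r, the interleukin-7 receptor chain that also feeds STAT5, had 63.1 and 76.5 FPKM in AAV-IL-27, against 168 and 175 FPKM in AAV-ctrl, with a log2 fold change of -1.25 ± 0.091 (edgeR adjusted p = 0.000116). Of the STAT5 chains, then, some rose and Il7r fell. Il4ra, the chain through which interleukin-4 engages STAT6, fell to 52.4 ± 1.13 FPKM in AAV-IL-27, against 67.4 ± 0.453 FPKM in AAV-ctrl. Il6ra fell by 0.81 ± 0.052 (edgeR adjusted p = 4.22e-06), and of the IL-27 receptor chains Il27ra was at -0.45 and Il6st at -0.63. Il2rb and Ifnar2 rose as well, Ifnar2 not passing with factors from the T cell marker genes (0.23, adjusted p = 0.0842). So did Il10ra (1.01 ± 0.093, edgeR adjusted p = 0.000337) and, slightly, Il21r (0.17, edgeR adjusted p = 0.0220). Il21r did not pass by DESeq2 or with factors from the T cell marker genes (0.005).

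Against a background of 21.3% of all genes tested higher and 17.7% lower, the 18 inhibitors of the pathway were counted in the same way. Of these 18, 7 rose, 2 fell and 9 did not pass (median log2 fold change 0.09). That balance depended on the scaling: 7 rose and 4 fell with upper-quartile factors or with library size alone, and 5 rose and 7 fell with factors from the T cell marker genes. Socs1, Socs2, Socs3 and Usp18, feedback genes that active STATs switch on, were 4 of the 7 that rose. Socs1, which blocks JAK activity, had 34.8 and 31.4 FPKM in AAV-IL-27, against 10.1 and 7.95 FPKM in AAV-ctrl (1.94 ± 0.11, edgeR adjusted p = 2.83e-06). Socs3, which binds gp130, had 96.0 and 87.8 FPKM in AAV-IL-27, against 26.7 and 29.2 FPKM in AAV-ctrl. Usp18, a brake on the type I interferon receptor that acts with STAT2, averaged 21.9 ± 0.297 FPKM in AAV-IL-27, against 7.60 ± 0.665 FPKM in AAV-ctrl. None of the 4 PIAS genes rose, and Pias1 was lower (-0.21 ± 0.051, adjusted p = 0.0102), but the edgeR adjusted p was 0.0618 with AAV-ctrl replicate 1 left out and 0.113 with AAV-ctrl replicate 3 left out. Ptpn6, the phosphatase SHP-1, was the other gene that fell (-0.34 ± 0.069, adjusted p = 0.00585), with an adjusted p of 0.0705 once AAV-ctrl replicate 1 was left out. Ptpn1, a phosphatase of JAK2 and TYK2, rose by 0.46 ± 0.047 (adjusted p = 7.93e-05). Ptpn11 and Ptprc, which encode the phosphatases SHP-2 and CD45, also rose, but neither passed with factors from the T cell marker genes.

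Genes known as targets of single STATs were counted by list. By the same test 39.0% of all genes tested were called, 21.3% higher and 17.7% lower, which is the background of each count. The lists were drawn from general knowledge but with earlier results of these data known, so the counts describe these lists only. They hold genes that other factors also control. In addition, 8 genes stand in more than 1 list of the pathway (Cish, Il12rb2, Il2ra, Il4ra, Pim1, Socs2, Socs3 and Usp18), so a count does not show which STAT acted. The neutrophil marker sum given above was higher in the same libraries, and its part in these counts was not tested. Of 10 STAT3 targets, 9 rose and 1 did not pass (median log2 fold change 1.58). Bcl3, a nuclear partner of NF-kappa-B, had 47.6 and 49.0 FPKM in AAV-IL-27, against 18.9 and 19.3 FPKM in AAV-ctrl (1.39 ± 0.060, edgeR adjusted p = 4.16e-07). Il10, a cytokine that restrains immune responses, had 14.9 and 12.6 FPKM in AAV-IL-27, against 0.440 and 0.790 FPKM in AAV-ctrl. Mcl1, a survival gene, was the member that did not pass, at 159 ± 0.785 FPKM in AAV-IL-27, against 161 ± 4.38 FPKM in AAV-ctrl. Junb passed narrowly (0.33, edgeR adjusted p = 0.0473). It did not pass with upper-quartile factors (edgeR adjusted p = 0.0762), library size alone (0.0743) or factors from the T cell marker genes (0.23). With each of these scalings 8 STAT3 targets rose. Junb also lost its call in both limma fits, without the filter on low counts, and with either AAV-ctrl library left out (0.40 without replicate 1, 0.27 without replicate 3).

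Of 11 tested genes bound by STAT2 and IRF9 complexes, 8 rose and 3 did not pass (median 0.54), where 21.3% of all genes tested rose. Mx1, also listed, has no row in the table. With upper-quartile factors or library size alone 7 rose. With factors from the T cell marker genes 6 rose, and Irf7 did not pass (0.25, edgeR adjusted p = 0.0681). Oas1a, an antiviral sensor enzyme, had 15.3 and 17.6 FPKM in AAV-IL-27, against 7.67 and 6.80 FPKM in AAV-ctrl. Irf9, the DNA-binding partner of STAT2, had 62.5 FPKM in each AAV-IL-27 library, against 59.3 and 52.1 FPKM in AAV-ctrl (0.22 ± 0.063, edgeR adjusted p = 0.0241). Irf9 was at 0.13 (adjusted p = 0.235) with AAV-ctrl replicate 3 left out and at 0.048 with factors from the T cell marker genes, and its adjusted p was 0.0559 with AAV-IL-27 replicate 3 left out. Ifit1, an antiviral gene of the same kind, was at 5.71 ± 0.332 FPKM in AAV-IL-27, against 5.46 ± 1.58 FPKM in AAV-ctrl.

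Of 6 STAT4 targets, 3 rose and 2 fell (median 0.73), where 21.3% of all genes tested rose and 17.7% fell. Ifng, the interferon-gamma gene, averaged 35.5 ± 2.72 FPKM in AAV-IL-27, against 6.21 ± 0.212 FPKM in AAV-ctrl. Tbx21, which encodes T-bet, averaged 29.5 ± 0.00707 FPKM in AAV-IL-27, against 11.9 ± 0.332 FPKM in AAV-ctrl. Il18r1 and Furin were lower by less than 0.3 on the log2 scale, and both calls were lost with AAV-ctrl replicate 1 left out (edgeR adjusted p = 0.187 for Il18r1 and 0.0715 for Furin). For Il18r1 the adjusted p was 0.0836 with AAV-IL-27 replicate 1 left out. For Furin it was 0.123 with AAV-IL-27 replicate 3 left out and 0.208 with AAV-ctrl replicate 3 left out.

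Of 8 STAT5 targets, 3 rose, 1 fell and 4 did not pass (median 0.19). Calls were made for 39.0% of all genes tested. Pim1, a kinase gene, averaged 85.9 ± 2.18 FPKM in AAV-IL-27, against 57.7 ± 0.495 FPKM in AAV-ctrl. Il2ra, the alpha chain of the interleukin-2 receptor, stood at 4.69 ± 0.134 FPKM in AAV-IL-27, against 4.77 ± 0.0212 FPKM in AAV-ctrl. Cish, a feedback inhibitor, stood at 1.88 ± 0.134 FPKM in AAV-IL-27, against 1.51 ± 0.212 FPKM in AAV-ctrl. Bcl2, a survival gene, was the one that fell (-0.23 ± 0.072, edgeR adjusted p = 0.0365). Its adjusted p was 0.128 with AAV-IL-27 replicate 1 left out, 0.258 with AAV-ctrl replicate 1 left out and 0.0637 with AAV-ctrl replicate 3 left out. For Socs2 it was 0.0678 with AAV-ctrl replicate 1 left out. Of 3 tested STAT6 targets, Il4ra and Ccr4 fell. Ccr4, a chemokine receptor, was at 0.135 ± 0.0919 FPKM in AAV-IL-27, against 0.560 ± 0.184 FPKM in AAV-ctrl. Its call was lost with AAV-IL-27 replicate 3 left out (edgeR adjusted p = 0.0863) or AAV-ctrl replicate 1 left out (0.165). Gata3 stood at 7.64 ± 0.608 FPKM in AAV-IL-27, against 9.11 ± 0.283 FPKM in AAV-ctrl (edgeR adjusted p = 0.0899).

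**Figure D3:**
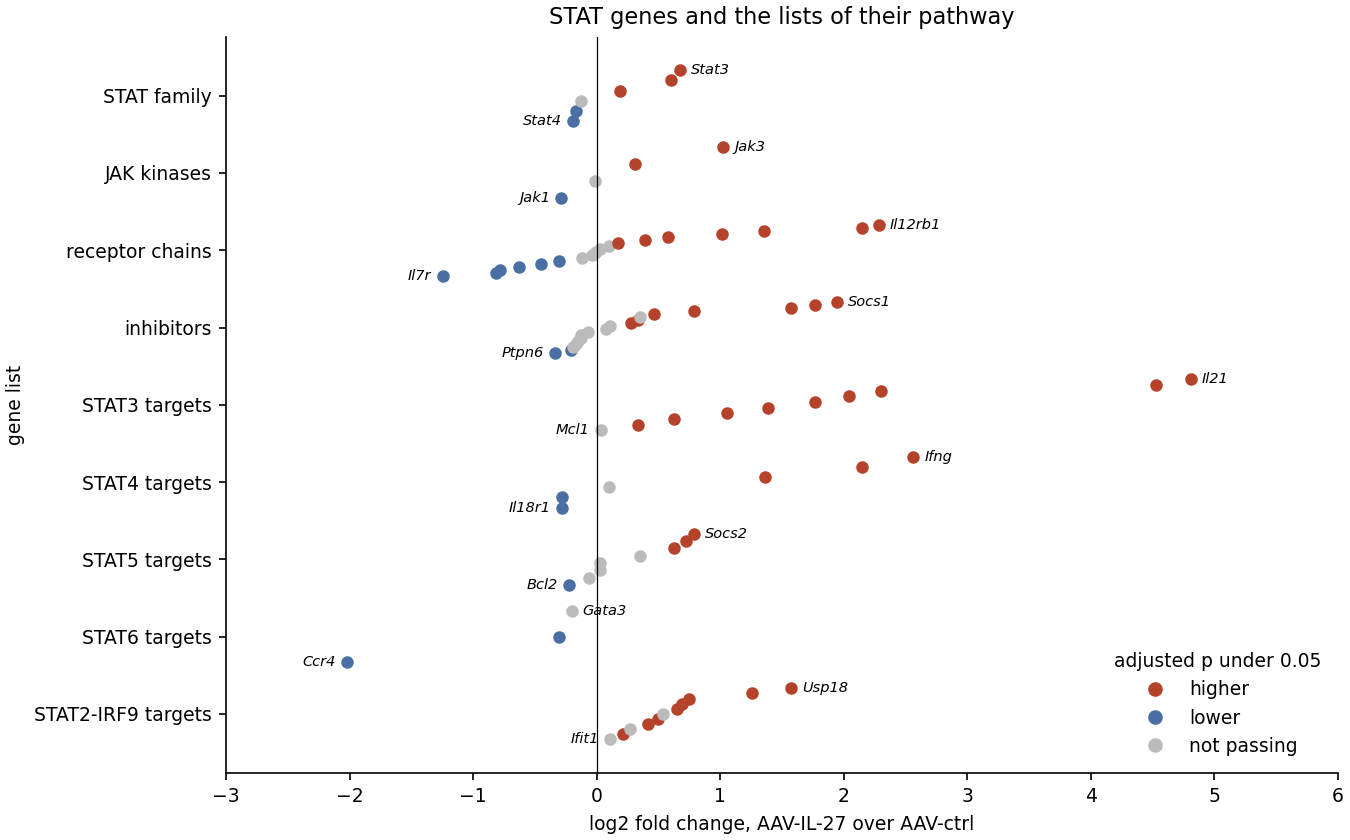
Log2 fold change (AAV-IL-27 over AAV-ctrl, horizontal axis) of each tested gene in the STAT family and in 8 lists of its pathway, 1 point per gene, red for higher, blue for lower and grey for not passing (edgeR adjusted p under 0.05). The STAT genes span -0.19 to 0.67, a narrower range than that of the receptor chains (-1.25 to 2.29).

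**Figure D4:**
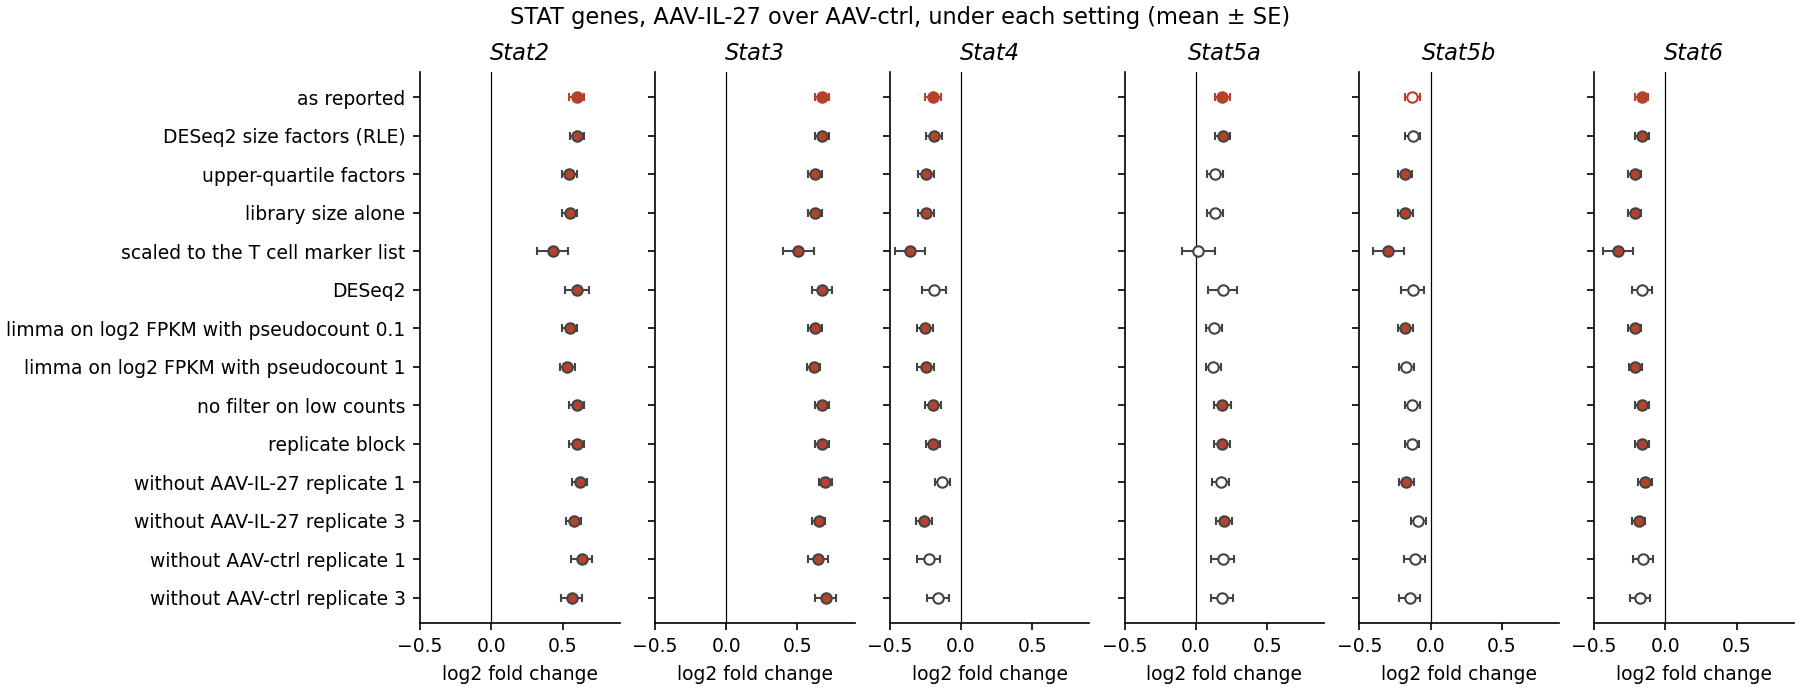
Log2 fold change (AAV-IL-27 over AAV-ctrl) with its SE for each STAT gene as reported and under 13 alternatives, filled where the adjusted p is under 0.05. Stat2 and Stat3 are filled in every row, while Stat4, Stat5a, Stat5b and Stat6 change between filled and open. With factors from the T cell marker genes Stat4 lies at -0.36, Stat6 at -0.33 and Stat5b at -0.30, all filled, and Stat5a at 0.018, open.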

How the data were processed

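The deposited table gives, for every gene in every library, the authors' expected counts, which can be fractional, and a second value that the header does not name by unit. The authors deposited this second value after scaling it by gene length and library size, as far as the values show, so it was read as FPKM: across 9511 genes, its ratio to the count followed the library totals (0.9955 and 0.9954 for AAV-IL-27 replicate 3 against replicate 1). Per the submitters' processing notes, the build was GRCm38.p6 and the software RSEM 1.2.12, Bowtie2 2.2.5, HISAT2 2.0.4 and DESeq2 1.4.5, with no roles given. Strand use and filters are not stated there. Columns of group averages were not used.

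Expected counts were rounded, filtered with filterByExpr, scaled with TMM and compared with edgeR 4.0.16 (quasi-likelihood, robust, no block, two-sided) in R 4.3.3, with Benjamini-Hochberg adjustment over 12887 of 17039 genes and a threshold of 0.05. The SE is the log2 fold change divided by the square root of F. The fit was tested on simulated data. Members and gene lists were chosen with earlier results of these data known, and all 6 members are named. Any gene of the lists could be named, first the 4 of smallest p among those called and those called against most of their list, and the others after their values were seen. Counting error was 1.35% (Stat3) to 3.05% (Stat5a) of a member's count per library and covers counting only. Alternatives used DESeq2 1.42.0 and limma 3.58.1 with pseudocounts of 0.1 and 1. Within AAV-IL-27 and within AAV-ctrl, counts of the libraries varied more than sampling alone gives (chi-square over degrees of freedom 6.79 and 2.55).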

Additional observations from a re-analysis of the deposited data

How the results depend on the processing

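All 6 STAT genes kept their direction under the 13 alternatives run, and Stat2 and Stat3 kept their calls. By DESeq2, Stat4 (-0.19), Stat5a (0.19) and Stat6 (-0.16) did not pass, which left 0 members lower after adjustment, against 2 by edgeR. At an unadjusted p under 0.05 DESeq2 put 2 members lower and edgeR 3. Stat5a did not pass with upper-quartile factors (0.14), library size alone (0.14), scaling to the T cell marker genes (0.018) or limma with a pseudocount of 0.1 (0.13) or 1 (0.12). Stat5b passed with upper-quartile factors (-0.18), library size alone (-0.18), scaling to the T cell marker genes (-0.30) and limma with a pseudocount of 0.1 (-0.18). Stat4 and Stat6 kept their calls at larger shifts with upper-quartile factors (-0.24 and -0.22) and library size alone (-0.24 and -0.22). The same held with scaling to the T cell marker genes (-0.36 and -0.33). Scaling to the T cell marker genes moved the median of all genes to -0.17 and the calls to 1449 higher and 3662 lower, against 2745 and 2278 as reported. DESeq2 called 1239 genes lower. Of the calls, 54.6% were higher as reported, 44.2% with upper-quartile factors, 44.3% with library size alone and 61.8% by DESeq2. The cause of these shifts was not tested.

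Leaving out 1 library gave 0.56 to 0.63 for Stat2, 0.64 to 0.70 for Stat3, -0.26 to -0.13 for Stat4, 0.17 to 0.20 for Stat5a, -0.17 to -0.0865 for Stat5b and -0.19 to -0.14 for Stat6. The members higher numbered 2 to 3 and those lower 0 to 2, with 0 lower when either AAV-ctrl library was left out, and the genes called numbered 1646 to 2632 higher and 989 to 2254 lower. A lone library in a group is then assumed to vary like the others. The groups share the replicate numbers 1 and 3, but the deviations of same-numbered libraries did not go together (r = -0.000711). With a replicate block Stat3 was at 0.67 and Stat4 at -0.19, with 2739 genes higher and 2232 lower, and no STAT call changed, but Bcl2 (-0.23, edgeR adjusted p = 0.0803) and Il18r1 (-0.28, adjusted p = 0.0628) did not pass. Recomputing the 15 ratios from rounded counts left each direction as it was. Of the counts by pathway list and the ratios, 201 recomputed values kept their direction or stayed within 1.5 times, and 22 list counts moved further.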

Other observations

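The genes whose pattern over the 4 libraries lay closest to each member were listed by the Euclidean distance between centred log2 CPM, among 7915 genes whose log2 CPM averaged 4 or more. For Stat3 these were Pqlc3, Prr13 and Psma4, an alpha subunit of the proteasome, at distances of 0.017, 0.024 and 0.024, against a median distance of 0.69 over all those genes. Stat3 itself had centred values of 0.31 and 0.36 in AAV-IL-27, against -0.36 and -0.31 in AAV-ctrl. For Stat2 they were Xaf1, Kcnh6 and the nucleoside transporter gene Slc29a1, at 0.026 to 0.034, against a median of 0.62. The members with small changes had many more near neighbours: 53 genes lay within a distance of 0.1 of Stat3 and 76 of Stat2, against 504 for Stat4, 730 for Stat5a, 815 for Stat5b and 958 for Stat6. The closest were Prrc1 for Stat4, Tm9sf3 for Stat5a, Btbd2 for Stat5b and Hipk3 for Stat6. The patterns rest on 4 libraries of 2 groups, so they are a description of these libraries.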
